A study of Homo sapiens with 4 samples.

Results

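The 35 genes described here encode aminoacyl-tRNA synthetases, and they were taken from the count table by gene symbol, out of 61806 rows. The cytosolic set held 19 genes and the mitochondrial set 16, the symbols that end in 2. GARS1 and KARS1, whose genes each supply an enzyme to both compartments, were counted with the cytosolic set unless stated, and with them the mitochondrial set had 18 genes. RNA had been sequenced from the human breast cancer line MDA-MB-231 and from MDA-MB-435, which the labels give as melanoma, both of wild-type genotype, here also called the breast cancer line and the melanoma line, each as an untreated control and after 10 µM CPYPP, an inhibitor of DOCK proteins, for 6 h. The study asked which genes change when CPYPP sets off paraptosis, a form of cell death with a swollen, vacuole-filled cytoplasm. Each of the 4 conditions was 1 library, so a comparison within a line sets 2 libraries against each other, and its exact test and interval cover counting error and not the spread between cultures.

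The libraries held 22359735 counts in the MDA-MB-231 control, 17196385 in MDA-MB-231 with CPYPP, 22663954 in the melanoma control and 19489282 in the melanoma line with CPYPP, and 3 counts, the limit that a count of 0 allows, corresponded to between 0.132 and 0.174 CPM, counts scaled to an equal library size. The melanocyte lineage gene SOX10 had 0 and 1 counts in the MDA-MB-231 libraries and 3031 and 707 in those of the melanoma line, while the pigment genes MLANA, PMEL, TYR and TYRP1 had at most 34 counts in any library. Of the 6 epithelial genes KRT19, EPCAM and CDH1 had 287 to 3953 counts in the MDA-MB-231 libraries and 4 or fewer in those of the melanoma line, where KRT7 and KRT8 had 310 to 625 and KRT18 had 5740 and 4077, against 8212 and 5653 in MDA-MB-231. DCT, another melanocyte gene, had 658 and 464 counts in MDA-MB-435, so that the lineage rested on SOX10 and DCT with the pigment genes near 0, and MITF was counted at like numbers in both control libraries, 1585 and 1405.

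Aminoacyl-tRNA synthetases join each amino acid to its own tRNA, the step at which the genetic code is read into amino acids. Most amino acids have one enzyme in the cytosol and another, encoded by a separate nuclear gene, in the mitochondrion, where it supplies the translation of the few proteins that the mitochondrial genome encodes. Several of the cytosolic enzymes sit together in the multisynthetase complex on scaffold proteins. When uncharged tRNA builds up, the kinase GCN2, the product of EIF2AK4, dampens translation and favours the translation of the transcription factor ATF4, and cytosolic synthetase genes are among the genes that ATF4 is known to induce.

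The cytosolic synthetase transcripts took a larger part of the library after CPYPP and the mitochondrial ones a smaller part, in both lines. In MDA-MB-231 the cytosolic set made up 0.339% of all counts in the control (exact 95% binomial interval 0.336 to 0.341%) and 0.359% after CPYPP (0.356 to 0.362%). In MDA-MB-435 its share was 0.402% in the control (0.40 to 0.405%) and 0.450% after CPYPP (0.447 to 0.453%). The intervals of control and CPYPP did not overlap in either line, but they cover counting error in single libraries and not the spread between cultures. The 16 mitochondrial genes went the other way, from 0.0609% (0.0599 to 0.0619%) to 0.0539% (0.0528 to 0.0550%) in MDA-MB-231 and from 0.0751% (0.0740 to 0.0762%) to 0.0638% (0.0626 to 0.0649%) in the melanoma line. Cytosolic counts outnumbered mitochondrial counts 5.56 to 1 in the MDA-MB-231 control and 6.67 to 1 after CPYPP, and 5.36 to 1 and 7.06 to 1 in the melanoma line. In RNA from a whole culture, less RNA per cell and fewer cells that carry it cannot be told apart.

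Per length, the levels of the synthetases ranged widely. The level of each gene was taken as FPKM, the counts per kilobase of exon with library sizes made equal by TMM, the trimmed mean of M-values. The exon lengths were those given with the counts. Some far exceed those of GENCODE's gene models, with 17631 against 2545 bases for RARS2 and 22418 against 7401 for IARS1. For IARS2 they were close, 4135 against 4165. FPKM values of different genes thus depend on the annotation, while fold changes of 1 gene between libraries do not depend on its length. The median FPKM of the 19 cytosolic genes was 19.9 in the MDA-MB-231 control, 22.9 after CPYPP, 20.7 in the melanoma control and 26.8 after CPYPP. The median of the 16 mitochondrial genes was 4.08, 3.58, 4.75 and 4.33 FPKM in the same order. TARS1, the threonyl-tRNA synthetase, had the highest FPKM of the members in 3 libraries, with 95 in the MDA-MB-231 control, 107 after CPYPP and 105 in the melanoma line after CPYPP, and in the melanoma control FARSA, the catalytic subunit of the cytosolic phenylalanyl-tRNA synthetase, stood above it at 107 against 82.7. Among the mitochondrial genes IARS2, the isoleucyl-tRNA synthetase, stood apart with 60.2 and 58.2 FPKM in MDA-MB-231 and 64.1 and 56.5 in the melanoma line. With the exon lengths used, that was above most cytosolic genes and above its own cytosolic counterpart IARS1, which had more counts than IARS2 in every library. VARS2, the mitochondrial valyl-tRNA synthetase, was the lowest in every library, with 11 and 8 counts in MDA-MB-231 and 81 and 25 in the melanoma line. Because of these levels the counting error was wider in the mitochondrial set: the 95% interval of a fold change spanned a median of 0.40 log2 units for it in MDA-MB-231 and 0.36 in the melanoma line, against 0.15 and 0.12 for the cytosolic set.

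**Figure D1:**
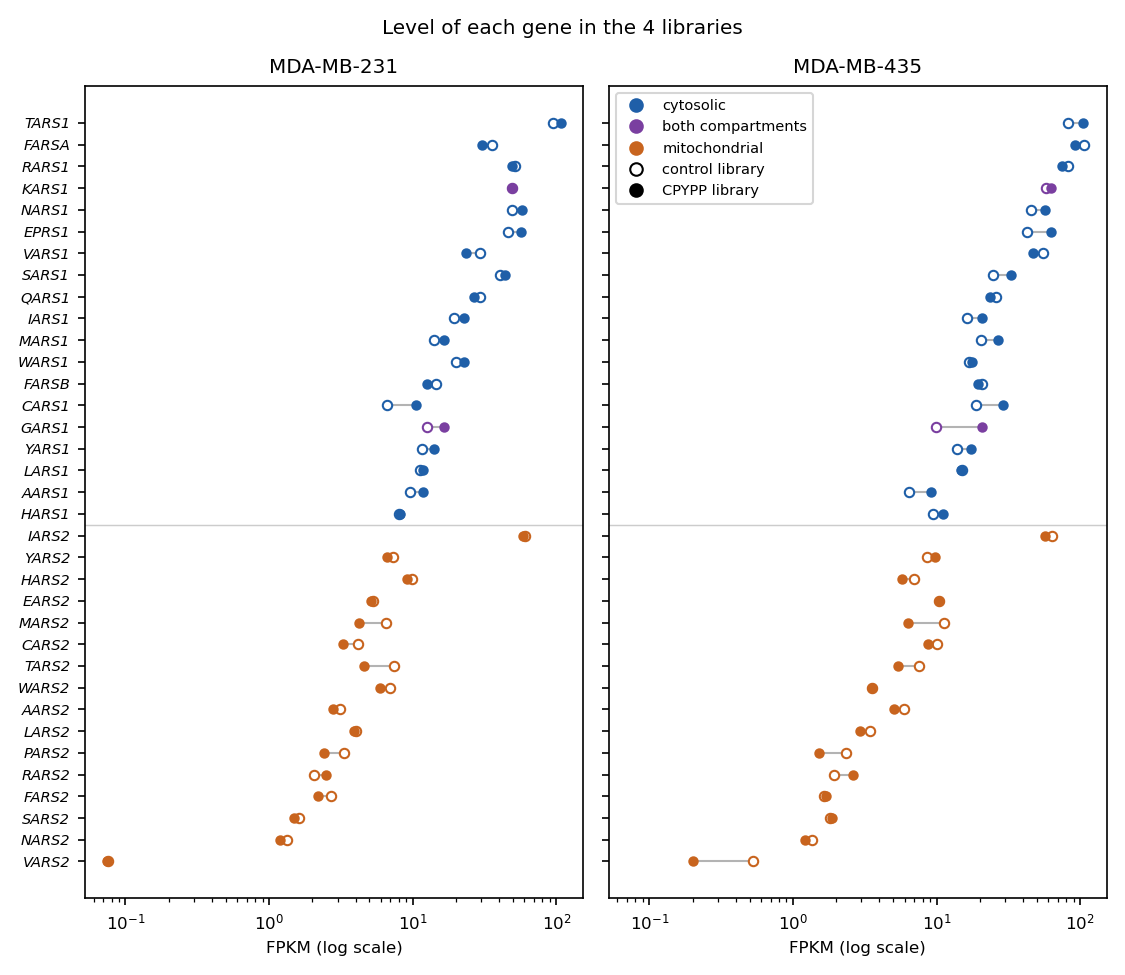
Level of each of the 35 synthetase genes as FPKM on a log scale, with open points for the control library and filled points for the CPYPP library of each line, cytosolic genes above the grey line and mitochondrial genes below it. IARS2 lies at 56.5 to 64.1 FPKM in all 4 libraries among cytosolic genes, while VARS2 lies lowest, and the cytosolic points mostly shift to the right with CPYPP and the mitochondrial points to the left.

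All 35 genes passed the minimum of 10 counts in 1 of the 2 libraries in every comparison. Between control and CPYPP, 0 members passed a fold of 2 with an adjusted p under 0.05 in MDA-MB-231 by the exact binomial test, although 12 members were higher and 9 lower at that adjusted p with no minimum fold. Of all genes tested in that line, 3.80% passed both criteria upwards and 2.91% downwards. In MDA-MB-435 GARS1 passed upwards and VARS2 downwards, where 2.54% of all genes passed upwards and 7.39% downwards. The estimated changes of the other members were thus within 2-fold, and the counts that follow use the adjusted p alone, which in MDA-MB-231 22.9% of all genes passed upwards and 21.3% downwards and in the melanoma line 21.8% upwards and 28.8% downwards.

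Of the 19 cytosolic genes 11 rose and 4 fell in MDA-MB-231, and 12 rose and 4 fell in the melanoma line, with median log2 fold changes of 0.17 and 0.31. The median of all genes tested was -0.02 in MDA-MB-231 and -0.09 in the melanoma line. The same 10 genes rose in both lines, namely AARS1, CARS1, EPRS1, GARS1, IARS1, MARS1, NARS1, SARS1, TARS1 and YARS1, and the same 3, FARSA, QARS1 and VARS1, fell in both. Of the 10, SARS1 lost its call in MDA-MB-231 by total counts and with DESeq2's size factors, and the others kept theirs in both lines under all 5 alternative scalings. These calls cover counting error only. The edgeR test of the common effect, given below, called 3 of the 10, CARS1, EPRS1 and GARS1. In MDA-MB-435 scaling by total counts gave 11 higher and 6 lower, and upper quartile scaling, which moved the median of all genes in that line by 0.11 on the log2 scale, gave 14 higher and 2 lower.

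GARS1, the glycyl-tRNA synthetase of cytosol and mitochondrion (ENSG00000106105, chr7:30580533-30634033 on the plus strand in the positions of the file, which match GRCh38), had the largest change upwards of the family in MDA-MB-435. It had 4874 counts in the MDA-MB-231 control and 4769 after CPYPP, and 4055 in the melanoma control and 6950 after CPYPP, which on the FPKM scale was 12.5, 16.6, 9.86 and 20.7. The control of MDA-MB-435 was the lowest of the 4 libraries and its CPYPP library the highest, and both CPYPP libraries lay above both controls. GARS1 thus rose 1.33-fold in MDA-MB-231 (95% counting interval 1.27 to 1.38) and 2.10-fold in the melanoma line (2.02 to 2.18). Over the 6 scalings tried the latter ranged from 2.0 to 2.27, and by total counts it no longer passed the threshold of 2.

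CARS1, the cytosolic cysteinyl-tRNA synthetase (chr11:3000922-3057613, minus strand), rose by nearly the same factor in both lines from very different starting levels. Its FPKM was 6.62 in the MDA-MB-231 control, 10.6 after CPYPP, 18.7 in the melanoma control and 28.9 after CPYPP, so that every melanoma value lay above every MDA-MB-231 value. It rose 1.60-fold (1.49 to 1.71) in the breast cancer line and 1.55-fold (1.49 to 1.61) in the melanoma line. It was the largest change upwards of any member in MDA-MB-231 and the second after GARS1 in the melanoma line.

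EPRS1, the bifunctional enzyme for glutamate and proline, measured 46.0 and 57.1 FPKM in MDA-MB-231 control and CPYPP and 42.4 and 62.5 in the melanoma line. AARS1, the alanyl-tRNA synthetase, measured 9.52 and 11.7 FPKM in MDA-MB-231 and 6.43 and 9.13 in the melanoma line. For both genes the fold change was higher in the melanoma line. EPRS1 rose 1.24-fold (1.19 to 1.29) and 1.48-fold (1.42 to 1.53), and AARS1 1.22-fold (1.15 to 1.30) and 1.42-fold (1.33 to 1.52), in MDA-MB-231 and the melanoma line respectively. The remaining genes that rose in both lines did so by 1.08-fold to 1.22-fold in the breast cancer line and 1.24-fold to 1.33-fold in the melanoma line. Among them SARS1, the seryl-tRNA synthetase, had the smallest change in MDA-MB-231, from 40.7 to 44.0 FPKM, and the largest of this group in the melanoma line, from 24.7 to 32.8.

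MARS1, the methionyl-tRNA synthetase, had 2199 and 1930 counts in MDA-MB-231, where the CPYPP library was the shallower, and rose there 1.19-fold (1.12 to 1.26), and 1.31-fold (1.25 to 1.38) in the melanoma line, from 3400 to 3645 counts. Its gene runs against that of DDIT3, the stress-induced transcription factor CHOP, and 12.4% of its exon bases lie over exons of DDIT3 and ARHGAP9 on the other strand. DDIT3 had 307 and 462 counts in MDA-MB-231 and 190 and 749 in the melanoma line. Whether the counting used the strand is not given in the sources used here, and the part of this overlap in the MARS1 values was not tested.

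The cytosolic genes that fell did so modestly. VARS1, the valyl-tRNA synthetase, measured 29.2 FPKM in the MDA-MB-231 control and 23.6 after CPYPP, and 55.5 and 46.7 in the melanoma line, a fold change of 0.808 (0.766 to 0.851) in the first line and 0.841 (0.812 to 0.871) in the second. FARSA measured 35.9 and 30.5 FPKM in MDA-MB-231 and 107 and 92.5 in the melanoma line, giving 0.850 (0.791 to 0.913) and 0.863 (0.830 to 0.897). Its partner FARSB, the other subunit of the same enzyme, fell in MDA-MB-231 to 0.861 (0.805 to 0.921), and in the melanoma line its fold change was 0.943 (0.895 to 0.993), which did not pass after adjustment (exact binomial test, adjusted p = 0.0505) and passed under 1 alternative scaling. QARS1, the glutaminyl-tRNA synthetase, had fold changes of 0.914 (0.864 to 0.966) and 0.907 (0.858 to 0.960). It lost its call under 1 alternative scaling in MDA-MB-231 and under 2 in the melanoma line.

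KARS1, the lysyl-tRNA synthetase and the other gene that serves both compartments, did not follow GARS1. Its FPKM was 48.8 and 49.3 in the breast cancer line and 57.5 and 62.3 in the melanoma line. The fold change in MDA-MB-231 was 1.01 (0.966 to 1.06), an interval that includes 1, and it rose 1.08-fold (1.04 to 1.13) in the melanoma line; 1 alternative scaling gave it a call in the first line and 1 removed that in the second. LARS1, the leucyl-tRNA synthetase, was the 1 cytosolic gene past the adjusted p in neither line, at 1.03 (0.987 to 1.07) and 0.982 (0.949 to 1.02), though by upper quartile it passed upwards in both and by total counts downwards in the second. HARS1, the histidyl-tRNA synthetase, rose in the melanoma line at 1.19 (1.13 to 1.25) and stood at 1.01 (0.95 to 1.07) in MDA-MB-231. WARS1, for tryptophan, with 10.6% of its exon bases shared with other genes, passed in MDA-MB-231 at 1.14 (1.08 to 1.2) and not in the melanoma line at 1.05 (0.987 to 1.11), and RARS1, for arginine, passed downwards in the melanoma line at 0.904 (0.871 to 0.938) and not in MDA-MB-231 at 0.956 (0.910 to 1.00). These differences between the lines depend on the scaling: WARS1 passed upwards in MDA-MB-435 under 3 of the 5 alternative scalings, and RARS1 passed downwards in MDA-MB-231 under 3 and lost its call in the other line under 1.

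The 7 cytosolic enzymes of the multisynthetase complex, EPRS1, IARS1, KARS1, LARS1, MARS1, QARS1 and RARS1, were split among themselves. In MDA-MB-231, 3 of them rose and 1 fell, and in the melanoma line, 4 rose and 2 fell, with median log2 fold changes of 0.04 and 0.11. Among the 12 cytosolic genes outside the complex 8 rose and 3 fell in MDA-MB-231, and 8 rose and 2 fell in the melanoma line, with medians of 0.18 and 0.31. No test was made between these groups of genes. Of the 3 scaffold genes AIMP1 rose in both lines, 1.11-fold (1.05 to 1.18) and 1.28-fold (1.19 to 1.36), and AIMP2, 28.9% of whose exon bases are shared with EIF2AK1, fell in both, to 0.867 (0.781 to 0.961) and 0.770 (0.680 to 0.871). EEF1E1 was lower in MDA-MB-231 at 0.905 (0.834 to 0.982) and higher in the melanoma line at 1.16 (1.04 to 1.30).

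**Figure D2:**
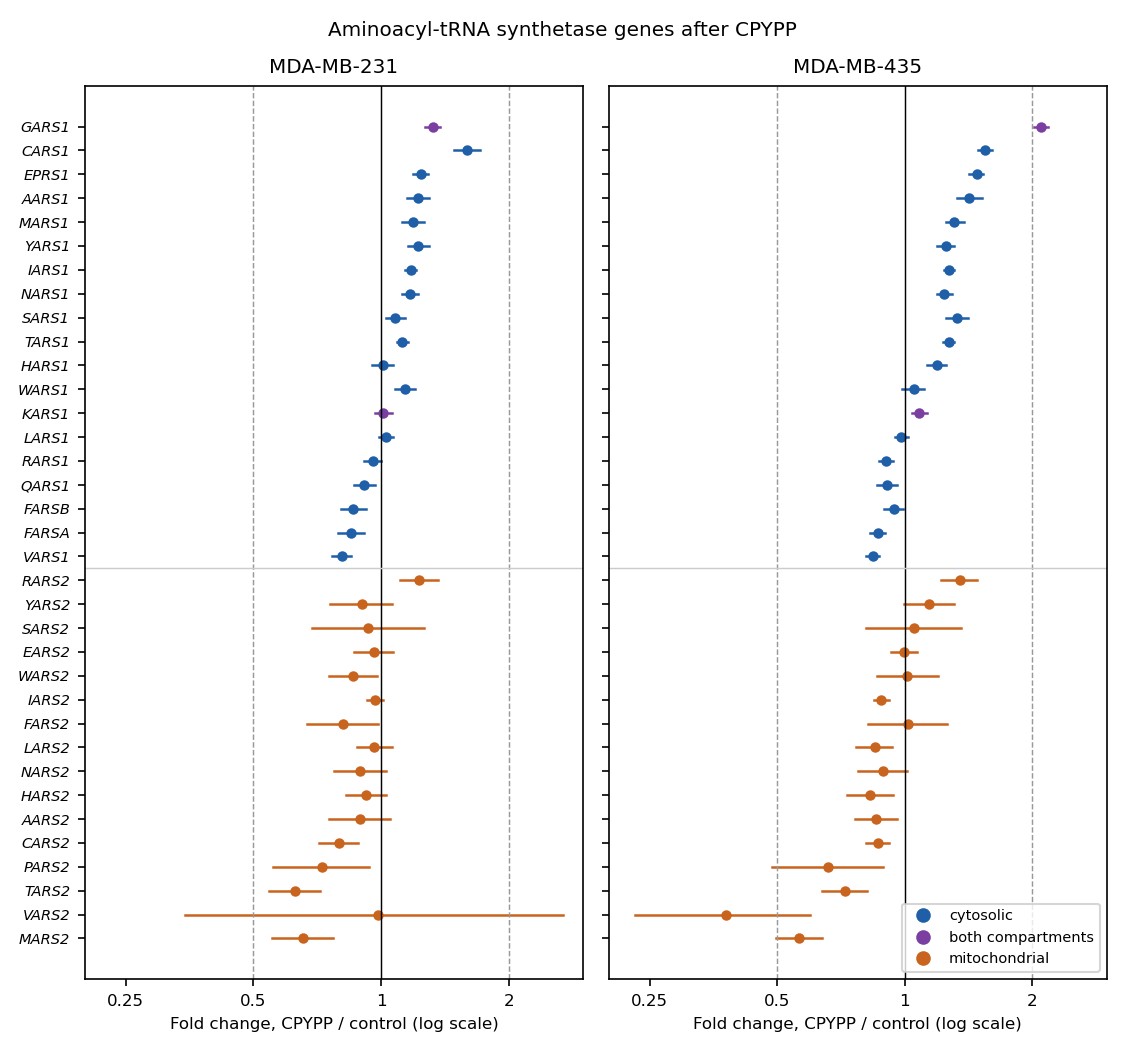
Fold change of each gene from the control library to the CPYPP library on a log scale, with the 95% counting interval as a bar, in MDA-MB-231 and the melanoma line; the solid line marks no change, the dashed lines mark 2-fold. Most cytosolic genes lie to the right of no change and most mitochondrial genes to the left, GARS1 in MDA-MB-435 passes 2-fold at 2.10, and the widest bars belong to VARS2.

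Among the 16 mitochondrial genes 1 rose and 5 fell in MDA-MB-231, and 1 rose and 9 fell in the melanoma line. Their median log2 fold changes were -0.16 and -0.20, against -0.02 and -0.09 for all genes tested, and -0.13 and -0.18 when GARS1 and KARS1 were added. CARS2, MARS2, PARS2 and TARS2 fell in both lines, and RARS2 rose in both. In MDA-MB-231 the number that fell was 7 under 3 of the 5 alternative scalings, and 3 by upper quartile, where PARS2 lost its call. In MDA-MB-435 upper quartile scaling gave 2 higher and 6 lower, and TMM within the 2 libraries of the line gave 2 higher and 7 lower, with YARS2 past the adjusted p upwards beside RARS2.

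MARS2, the mitochondrial methionyl-tRNA synthetase (chr2:197705369-197708395, plus strand), fell in both lines, and in MDA-MB-435 further than any mitochondrial gene but VARS2. It had 442 counts in the MDA-MB-231 control and 213 after CPYPP, and 811 in the melanoma control and 373 after CPYPP, or 6.52, 4.26, 11.3 and 6.36 FPKM. It fell to 0.653 (0.552 to 0.771) of the control in MDA-MB-231 and to 0.563 (0.497 to 0.637) in the melanoma line. TARS2, the mitochondrial threonyl-tRNA synthetase, had 662 and 306 counts in MDA-MB-231 and 715 and 422 in the melanoma line. From nearly equal control levels, 7.35 and 7.51 FPKM, it came to 4.60 in MDA-MB-231 and 5.42 in the melanoma line, fold changes of 0.626 (0.545 to 0.718) and 0.722 (0.639 to 0.816).

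PARS2, the mitochondrial prolyl-tRNA synthetase, rested on fewer counts, 176 and 94 in the breast cancer line and 130 and 70 in the melanoma line, with fold changes of 0.724 (0.557 to 0.935) and 0.659 (0.486 to 0.888). CARS2, for cysteine, measured 4.14 and 3.29 FPKM in MDA-MB-231 and 10.1 and 8.71 in the melanoma line, with fold changes of 0.795 (0.716 to 0.883) and 0.863 (0.812 to 0.918). IARS2 fell in the melanoma line to 0.881 (0.848 to 0.916), and in MDA-MB-231 it stood at 0.966 (0.928 to 1.01), where it passed downwards under 3 of the 5 alternative scalings. AARS2, HARS2 and LARS2, for alanine, histidine and leucine, passed in the melanoma line at 0.855, 0.828 and 0.849, calls that were lost under 3, 2 and 1 of the 5 alternative scalings, and had values of 0.891, 0.923 and 0.963 in MDA-MB-231, where they did not pass. The difference between the lines was not tested. WARS2, for tryptophan, passed in MDA-MB-231 at 0.858 (0.752 to 0.978) and stood at 1.01 (0.858 to 1.2) in the melanoma line, and it lost its call by upper quartile and by TMM within the line.

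VARS2 (chr6:30914205-30926459, plus strand) had 81 counts in the MDA-MB-435 control and 25 after CPYPP, a fold change of 0.378 (0.231 to 0.598; exact binomial test, adjusted p = 3.1e-05). In MDA-MB-231 its 11 and 8 counts gave 0.986 with an interval from 0.344 to 2.69, within which a change of the size seen in the melanoma line was not detectable at this depth. Of its exon bases 22.0% also belong to GTF2H4, a subunit of the general transcription factor TFIIH, and the part of this overlap in its counts was not tested. SARS2, the mitochondrial seryl-tRNA synthetase, shares 57.0% of its exon bases with other genes, 46.2% with a gene on the same strand and 10.8% with one on the other, and its counts of 112, 77, 132 and 113 in the 4 libraries are uncertain for that reason. Its fold changes were 0.932 (0.688 to 1.26) and 1.05 (0.808 to 1.36).

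RARS2, the mitochondrial arginyl-tRNA synthetase (chr6:87513459-87590028, minus strand), was the exception among the mitochondrial genes. It had 805 counts in the MDA-MB-231 control and 728 after CPYPP, and 812 and 894 in the melanoma line, or 2.04, 2.50, 1.94 and 2.62 FPKM. Both CPYPP libraries lay above both controls, with a rise of 1.23-fold (1.11 to 1.36) in the breast cancer line and 1.35-fold (1.22 to 1.48) in the melanoma line. It stayed above 1 under all 6 scalings in both lines. EARS2, FARS2, NARS2, SARS2 and YARS2, for glutamate, phenylalanine, asparagine, serine and tyrosine, passed in neither line, with fold changes between 0.812 and 0.963 in MDA-MB-231 and between 0.888 and 1.14 in the melanoma line. Under alternative scalings FARS2 passed downwards in MDA-MB-231 (3 of 5), and in MDA-MB-435 NARS2 passed downwards (1 of 5) and YARS2 upwards (3 of 5).

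Set against each other, the medians of the cytosolic and the mitochondrial set with GARS1 and KARS1 in both differed by 0.30 log2 units in MDA-MB-231 and by 0.49 in the melanoma line. These differences do not depend on the scaling of the libraries, and without GARS1 and KARS1 they were 0.33 and 0.51. In MDA-MB-231, 16 of the 19 cytosolic genes lay above the median of the 16 mitochondrial genes and 1 mitochondrial gene lay above the cytosolic median. In MDA-MB-435 the numbers were 17 and 1, the 1 gene being RARS2 in both lines. The median of all genes tested, -0.02 in MDA-MB-231 and -0.09 in the melanoma line, also lay above the mitochondrial medians of -0.16 and -0.20. Most genes of any kind thus lay above them, and the exact share is not given here. The sets overlapped in range: the cytosolic log2 fold changes ran from -0.31 to 0.68 in MDA-MB-231 and from -0.25 to 1.07 in the melanoma line, the mitochondrial ones from -0.67 to 0.29 and from -1.40 to 0.43.

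The same contrast was read within amino acids, where the cytosolic and the mitochondrial gene charge the same amino acid. The members allowed 17 such pairs, with EPRS1 set against both EARS2 and PARS2, and FARSA and FARSB both set against FARS2. The log2 fold change of the cytosolic gene exceeded that of the mitochondrial gene in 15 pairs in MDA-MB-231 and in 14 in the melanoma line, and the 95% counting interval of the difference lay above 0 in 10 and 11 of them. The median difference was 0.37 log2 units in MDA-MB-231 and 0.52 in the melanoma line.

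For cysteine, the difference of CARS1 and CARS2 was 1.01 log2 units (0.83 to 1.19) in MDA-MB-231 and 0.84 (0.74 to 0.95) in the melanoma line. On the FPKM scale CARS1 stood at 1.60 times CARS2 in the MDA-MB-231 control and 3.22 times after CPYPP, and at 1.85 and 3.32 times in the melanoma line. For methionine, MARS1 and MARS2 differed by 0.86 (0.61 to 1.12) and 1.22 (1.03 to 1.41), as the FPKM ratio went from 2.14 to 3.90 in MDA-MB-231 and from 1.81 to 4.21 in the melanoma line. For threonine, TARS1 and TARS2 differed by 0.84 (0.64 to 1.04) and 0.81 (0.63 to 0.99), and their FPKM ratio went from 12.9 to 23.2 and from 11 to 19.3. In these 3 pairs the cytosolic gene rose and the mitochondrial gene fell in both lines.

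For proline, EPRS1 and PARS2 differed by 0.78 (0.41 to 1.14) and 1.16 (0.74 to 1.59), also with the cytosolic gene up and the mitochondrial gene down in both lines. For isoleucine the FPKM of IARS1 was 0.323 of that of IARS2 in the MDA-MB-231 control and 0.393 after CPYPP. In the melanoma line it was 0.256 and 0.370. These ratios depend on the long exon length given for IARS1, which had more counts than IARS2 in every library. Which of the transcripts was the more abundant is therefore left undecided. Arginine was the 1 amino acid with the opposite order in both lines, with a difference of RARS1 and RARS2 of -0.36 (-0.52 to -0.20) and -0.58 (-0.72 to -0.43). The phenylalanine pairs had intervals that included 0 in both lines. For valine the difference was -0.29 (-1.60 to 1.03) in MDA-MB-231 and 1.16 (0.51 to 1.80) in the melanoma line, with VARS2 at few counts.

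**Figure D3:**
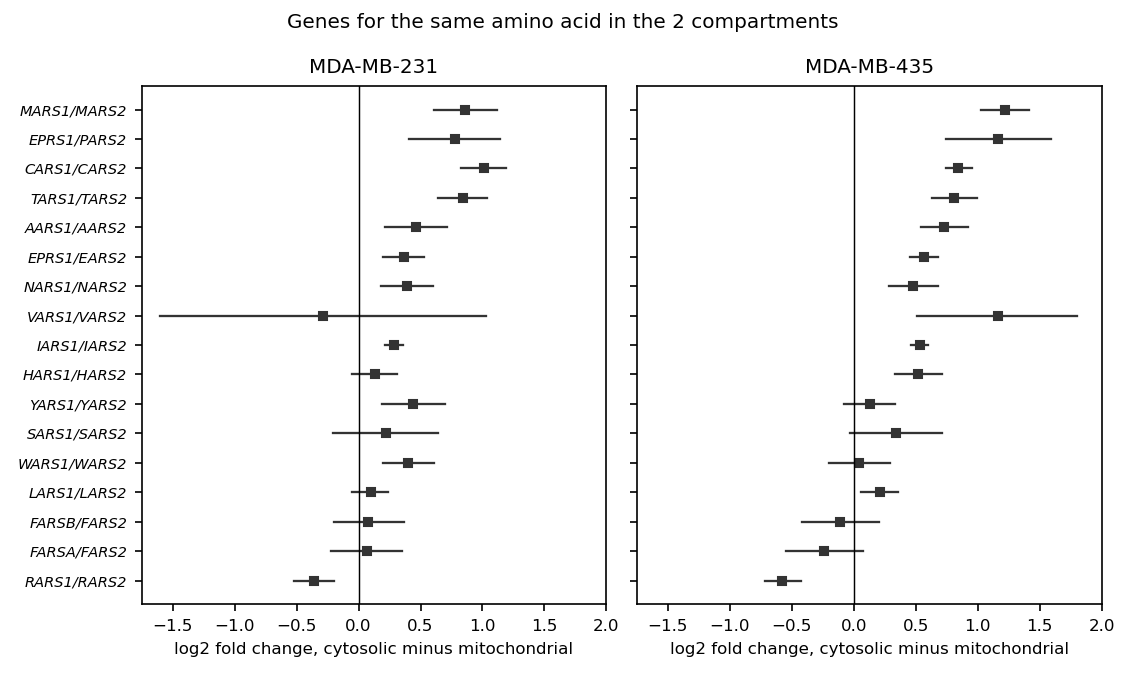
Difference of the log2 fold changes of the cytosolic and the mitochondrial gene for the same amino acid, with its 95% counting interval as a bar, for 17 pairs in each line. The pairs for methionine, cysteine, threonine and proline lie at 0.78 or more in both lines, RARS1/RARS2 lies left of 0 in both, and VARS1/VARS2 has the widest interval.

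The lines ordered the members in a like way. Across the 35 genes, the log2 fold changes in MDA-MB-231 and in the melanoma line had a Pearson r of 0.736, with 0.861 across the 19 cytosolic genes and 0.406 across the 16 mitochondrial genes, or 0.799 without VARS2. Across the 14262 genes tested in both lines r was 0.473. Those genes needed only 10 counts in 1 library of each line, and most members had many more, so the r values are not at like depth. These are descriptions across genes, which are not independent replicates, and the genes of a library share its depth and scaling.

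The log2 fold change of GARS1 was 0.66 higher in MDA-MB-435 (0.58 to 0.74) than in the other line. VARS2 had a larger difference, -1.38, with an interval from -2.85 to 0.08 at its few counts. YARS2 stood at 0.34 (0.04 to 0.65), FARS2 at 0.33 (-0.08 to 0.73), SARS1 at 0.29 (0.18 to 0.40), EPRS1 at 0.25 (0.17 to 0.33) and HARS1 at 0.24 (0.12 to 0.35). CARS1 stood at -0.05 (-0.16 to 0.07), an interval that includes 0. With 1 library per condition the difference between the lines was not tested beyond counting error. No member had counting intervals on opposite sides of 1 in the 2 lines.

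**Figure D4:**
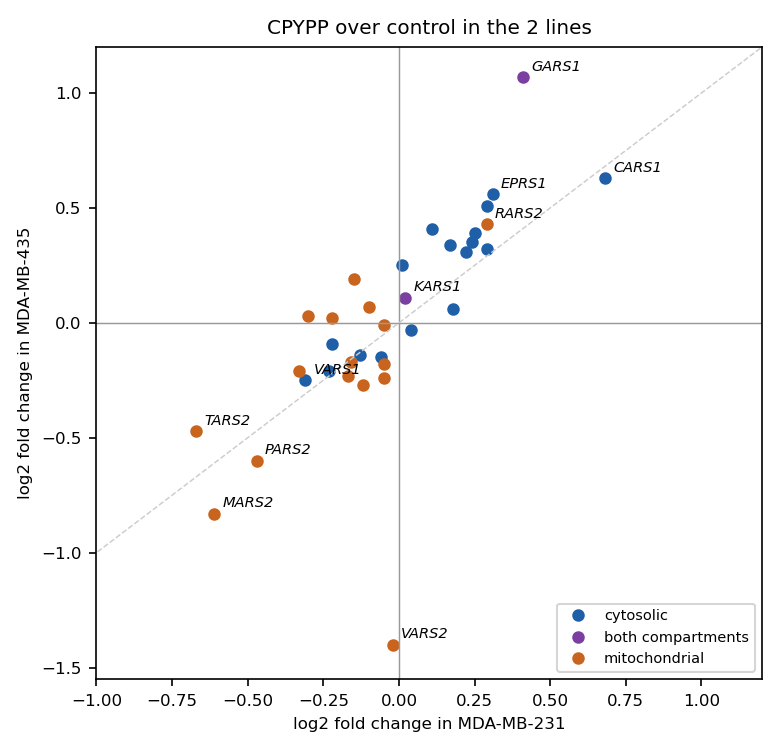
Log2 fold change from control to CPYPP of the 35 genes in MDA-MB-231 on the horizontal axis and in the melanoma line on the vertical axis, coloured by compartment, with the line of equal change dashed. Most cytosolic genes lie in the upper right, MARS2, TARS2 and PARS2 in the lower left, and GARS1 lies above the dashed line at 0.41 and 1.07.

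Between the untreated lines 4 members passed a fold of 2 with MDA-MB-435 the higher, and 0 with it the lower, by the exact binomial test. Of all genes tested, 22.3% were higher in MDA-MB-435 by these criteria and 20.4% lower. CARS1 stood 2.82-fold higher in MDA-MB-435 (2.66 to 3.0), FARSA 2.99-fold (2.84 to 3.14), CARS2 2.44-fold (2.26 to 2.63) and VARS2 6.96-fold (3.69 to 14.5). Both cysteinyl-tRNA synthetases were thus among them, the one that rose after CPYPP and the one that fell. Lowest in the melanoma line was WARS2, at 0.509 of the level in MDA-MB-231 (0.443 to 0.585), close to the threshold, which it passed with DESeq2's size factors.

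Taking the lines as the only repeat of the treatment, edgeR's quasi-likelihood test of the common effect, with the line as a block and 1 residual degree of freedom per gene, called 3 cytosolic genes higher and 1 mitochondrial gene lower. Of all genes tested 4.39% were called higher and 2.85% lower. CARS1 had a common log2 fold change of 0.65 (SE 0.108, adjusted p = 0.00584 by edgeR), GARS1 of 0.74 (SE 0.150, adjusted p = 0.0163) and EPRS1 of 0.44 (SE 0.114, adjusted p = 0.0460). MARS2 had -0.73 (SE 0.163, adjusted p = 0.0248). TARS2 at -0.57 (SE 0.155, adjusted p = 0.0535 by edgeR) and AARS1 at 0.40 (SE 0.116, adjusted p = 0.0675) did not pass.

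VARS2 had the lowest common log2 fold change of the mitochondrial set, -0.93, with an SE of 0.536, and did not pass (edgeR adjusted p = 0.371). RARS2 had the highest of that set, 0.36 (SE 0.138, edgeR adjusted p = 0.159), and VARS1 the lowest of the cytosolic set, -0.28 (SE 0.107, edgeR adjusted p = 0.162). The medians were 0.26 for the cytosolic set, -0.16 for the 16 mitochondrial genes and -0.04 for all genes tested. At an unadjusted p under 0.05, 10 cytosolic genes were higher and 1 lower, and among the 16 mitochondrial genes 1 was higher and 2 lower, beside 1801 higher and 1752 lower of all 16801 genes tested. DESeq2 on the same design called 9 members higher, which included the 3 called by edgeR, and 4 lower, MARS2 and TARS2 among them. The share of all genes that DESeq2 called is not given here, so these numbers cannot be set against it. A fit without the block for the line called 0 members in either direction.

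Of the genes around the synthetases, only the integrated stress response lists had members past a fold of 2 with CPYPP. ATF4 measured 58.8 and 88.2 FPKM in MDA-MB-231 and 108 and 288 in the melanoma line, a rise of 1.5-fold (1.43 to 1.57) and 2.66-fold (2.58 to 2.74). As with GARS1, the larger rise was in MDA-MB-435. EIF2AK4 fell to 0.895 (0.843 to 0.95) in MDA-MB-231 and to 0.778 (0.736 to 0.822) in the melanoma line. GCN1, the activator of its product, rose in MDA-MB-231 at 1.1 (1.05 to 1.15) and did not pass in the melanoma line at 0.969 (0.927 to 1.01).

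Of 6 known targets of the response, ASNS, CHAC1, DDIT3 and SESN2 passed a fold of 2 upwards in both lines and TRIB3 in the melanoma line alone, where its rise was 3.08-fold (2.82 to 3.37) against 1.82-fold (1.54 to 2.16) in MDA-MB-231. DDIT3 was close to the threshold in MDA-MB-231, at 2.04 with an interval from 1.76 to 2.36 that includes 2, and its call under other scalings is not given here. The sixth, VLDLR, passed the adjusted p in MDA-MB-231 at 1.21 (1.09 to 1.35) and not in the melanoma line at 0.889 (0.673 to 1.17). The median log2 fold change of the 6 was 1.77 in MDA-MB-231 and 2.46 in the melanoma line, against 0.17 and 0.31 for the cytosolic synthetases. ASNS, the asparagine synthetase, had 14 and 84 counts in MDA-MB-231 and 63 and 322 in the melanoma line, with 44.6% of its exon bases shared with another gene. CHAC1, which degrades glutathione, had 42 and 242 counts in MDA-MB-231 and 15 and 1054 in the melanoma line, and SESN2, an inhibitor of mTORC1 signalling, 109 and 456 and 160 and 2719.

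The machinery on either side of charging had 0 genes past a fold of 2 with CPYPP. XPOT, the exporter of tRNA from the nucleus, rose 1.22-fold (1.17 to 1.26) and 1.23-fold (1.18 to 1.27), while TRNT1, which adds the CCA end to which the amino acid is joined, fell to 0.683 (0.611 to 0.764) and 0.763 (0.686 to 0.847), and ELAC2, which trims the tRNA's 3′ end, fell to 0.834 (0.783 to 0.888) and 0.873 (0.823 to 0.926). SEPSECS, the enzyme that makes selenocysteine on its tRNA, fell to 0.588 (0.467 to 0.737) and 0.631 (0.530 to 0.749), and its partner PSTK passed in neither line. Of the 4 genes for glutaminyl- and formylmethionyl-tRNA in mitochondria, MTFMT fell in both lines, at 0.740 (0.611 to 0.894) and 0.848 (0.735 to 0.976), and GATB passed in neither. GATC passed upwards in MDA-MB-231 alone, at 1.11, but its fold change in the melanoma line was alike, at 1.12 (0.988 to 1.26). Of its exon bases 47.6% are shared with other genes. QRSL1 passed upwards in the melanoma line alone, at 1.35, and stood at 1.09 (0.973 to 1.21) in MDA-MB-231.

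Of the 3 proofreading genes DTD1 fell in MDA-MB-231 at 0.833 (0.755 to 0.918), and AARSD1 and DTD2 passed in neither line. Of the 5 genes that bring charged tRNA to the cytosolic ribosome, 0 rose and 2 fell in MDA-MB-231 and 2 rose and 1 fell in the melanoma line, with EEF1A1, the main elongation factor, at 0.923 (0.917 to 0.930) and 1.12 (1.11 to 1.12). EEF1G shares 99.9% of its exon bases with another gene and had at most 17 counts. Of the mitochondrial elongation factors TUFM and TSFM, neither passed in MDA-MB-231 and both fell in the melanoma line, TUFM to 0.961 (0.930 to 0.993) and TSFM to 0.574 (0.416 to 0.784). The median fold change of all genes in the melanoma line was 0.939, so TUFM fell less than the median gene. TSFM had 130 and 61 counts there, and 28.5% of its exon bases are shared with other genes. TARS3, a further threonyl-tRNA synthetase gene, passed in neither line, at 1.05 (0.850 to 1.29) and 0.915 (0.795 to 1.05).

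Because ATF4 and cytosolic synthetases were higher together after CPYPP, the promoters of the members were searched for the C/EBP-ATF response element, which ATF4 binds with a C/EBP partner, spelled TGATGNAA and read on both strands. RefSeq promoters of the build GRCh38.p14, taken as the 250 bases before each start site, matched 30 of the 35 members, and AARS2, LARS1, VARS1, VARS2 and YARS1 had no entry. The element was found in 4 of the 30, namely 3 of 16 cytosolic genes, AARS1, GARS1 and IARS1, and 1 of 14 mitochondrial genes, YARS2, while 3.90% of all 27058 genes with a promoter held it. The stretch around each match is given on the gene's own strand, 5′ to 3′, with the 8 bases of the element in capitals; 3 of the 4 hold it on the opposite strand, so that it reads TTNCATCA.
AARS1, minus strand, chr16:70289675-70289704: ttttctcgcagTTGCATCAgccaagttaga
GARS1, plus strand, chr7:30594834-30594863: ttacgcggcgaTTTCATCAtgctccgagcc
IARS1, minus strand, chr9:92293698-92293721: ttttcagcgcgTTGCATCAcctcc
YARS2, minus strand, chr12:32756076-32756105: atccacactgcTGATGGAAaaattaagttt
AARS1 and IARS1 hold the same 8 bases. All 3 cytosolic genes of the 4 rose in both lines, as did 10 of the 19 cytosolic genes with or without a match. YARS2 passed in neither line with the TMM of the 4 libraries. CARS1 and EPRS1, which rose at least as much as AARS1, hold no match in this window. Nor do MARS1, NARS1, SARS1 and TARS1, which also rose in both lines. Any part of the element in these changes was not tested.

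The antioxidant response element core, TGACNNNGC on either strand, was in 6 of the 30 promoters, those of GARS1, KARS1, TARS1, WARS1, NARS2 and RARS2, and in those of 13.2% of all genes. An inverted pair of heat shock units, GAANNTTC, was in 3, those of GARS1, NARS1 and HARS2, and in 7.06% of all genes. GARS1 was the 1 member with all 3 motifs, and RARS2, the mitochondrial gene that rose, held the antioxidant element alone of the 3. A match describes letters in the window and is no evidence of binding.

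HARS1 and HARS2, for histidine in cytosol and mitochondrion, start back to back, yet their transcripts moved apart in MDA-MB-435. By 1 RefSeq start site of each gene they share the stretch between the starts. In the gene positions of the count file the 2 genes overlap, as HARS1, on the minus strand, reaches 140691537 and HARS2 begins at 140691430. The 84 bases between the starts, chr5:140691371-140691454 in GRCh38.p14, are shown on the plus strand, on which HARS2 is read to the right and HARS1 is read to the left from the other end.
HARS1-HARS2 interval: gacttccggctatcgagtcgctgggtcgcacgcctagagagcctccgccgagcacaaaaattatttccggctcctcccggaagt
HARS1 had 2566 and 1909 counts in MDA-MB-231 and 3150 and 3055 in the melanoma line, and HARS2 818 and 557 in the first line and 615 and 416 in the second. The difference of their log2 fold changes was 0.13 (-0.05 to 0.31) in MDA-MB-231, an interval that includes 0, and 0.52 (0.33 to 0.71) in the melanoma line. Of the exon bases of HARS2 15.8% are shared with HARS1 and ZMAT2, and the part of that overlap in the difference was not tested.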

How the data were processed

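Poly(A) RNA libraries of both lines were sequenced by the authors, 1 library for each of the 4 conditions. The growth and treatment notes name MDA-MB-435 for every sample, so lines were taken from each sample's own label. The deposited file holds raw counts per gene. The submitters' processing notes name cutadapt 1.9.1, HISAT2 2.2.1, HTSeq 0.6.1, DESeq2 and the build GRCh37.p13, whereas the positions in the file overlapped those of GENCODE's GRCh38 genes for 58241 of 58254 shared identifiers. HTSeq can leave reads on overlapping genes uncounted. The members and gene lists were chosen with earlier results of these data known.

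Counts were scaled by TMM of the 4 libraries in edgeR 4.0.16 (factors 0.961 to 1.05). Within a line, each gene with at least 10 counts in 1 library was tested by a two-sided exact binomial test, adjusted by Benjamini-Hochberg over all genes tested (16441 in the breast cancer line, 16527 in the melanoma line, 18269 between controls), with Clopper-Pearson 95% intervals. Intervals of differences between genes or lines used a normal approximation on the log counts. PCR reads without molecular identifiers are not independent molecules, so intervals cover counting error only. The common effect was fitted in edgeR over 16801 genes, with DESeq2 1.42.0 as an alternative. Other alternatives were total counts, DESeq2 size factors, upper quartile, a fold of 1.5, and assumed biological coefficients of variation of 0.2 and 0.4; TMM over all genes and TMM within a line were added after seeing the data. Scripts were tested on simulated data. Exon overlaps were computed from GENCODE gene models. The text gives in full the members past a fold of 2 in any comparison, the extremes of the common effect in each set, GARS1, KARS1 and the pairs of genes for 1 amino acid, and other members by range or count; CARS2, SARS2, the genes past the adjusted p in 1 line and the HARS1-HARS2 interval were also named after their values were seen.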

Additional observations from a re-analysis of the deposited data

How the results depend on the processing

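Calls within a line depended on the threshold. With a fold of 1.5, MDA-MB-231 had 1 member higher and 2 lower, the melanoma line had 2 higher and 3 lower, and the melanoma control had 9 higher and 3 lower than that of MDA-MB-231. The share of all genes past a fold of 1.5 is not given here, so the members cannot be compared with all genes at that threshold. Where replicates were assumed to vary by a coefficient of 0.2 or of 0.4, MDA-MB-435 had 0 higher and 0 lower, and 0.4 left 1 higher between the controls. Scaling by total counts left 0 higher in MDA-MB-435, and DESeq2's size factors gave 1 lower between the controls. The median log2 fold change of the cytosolic set was 0.11 in MDA-MB-231 and 0.24 in the melanoma line by total counts, 0.23 and 0.42 by upper quartile, and 0.39 in the melanoma line by TMM within the line. Its sign and that of the mitochondrial median were the same under every scaling. The common effect had 9 members higher and 4 lower by DESeq2, whose share over all genes is not given here. Without the block for the line it had 0 and 0, at an unadjusted p under 0.05 as well. It had 2 lower without a filter on low counts and with DESeq2's size factors in edgeR. LARS1 in MDA-MB-435 went from -0.03 to 0.08 by upper quartile. Of 175 member values over the scalings, 158 kept their call, or their lack of one, in MDA-MB-231 and 155 in the melanoma line. A value that passed under neither scaling could change sign and still be among them. HARS1 in MDA-MB-231 did so, from 0.01 to -0.05 by total counts. The causes were not tested. Depth limits VARS2 in MDA-MB-231, SARS2 and PARS2.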
